A study of Homo sapiens with 4 samples.

Results

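Cassette exons with a lower share of inclusion reads in HEK293T cells given SF3B1 K700E are described here for 7 genes: PIK3IP1, FNIP1, DCAF16, SETD6, HDAC10, LDHB and ABCD4. For LDHB this holds for 3 rare junctions only: over all junctions of its exon, inclusion was 98.8% in K700E and 98.4% in WT. Genes were selected on the K700E and WT libraries themselves, by having an annotated cassette exon with lower inclusion in K700E than in WT; 7 of 57820 gene IDs in the count tables are members, and 378 genes held at least 1 exon that passed the same call. The study transfected HEK293T, a human embryonic kidney line that carries the SV40 large T antigen, with an expression vector for SF3B1 carrying R625H, K666T or K700E or for the wild-type protein (WT). Each vector gave 1 library of poly(A) RNA, read as 100-bp pairs, so no difference has a replicate check and every interval covers counting error only. Per the labels, R625H and K666T cells received 1000 ng of plasmid and K700E cells 2000 ng, and no source names the WT amount, so K700E and the plasmid amount cannot be told apart. SF3B1 itself had 517, 521 and 512 CPM in the R625H, K666T and K700E libraries and 506 CPM in WT (CPM, reads per 1000000 reads in genes); reads from the vector and from the cells' own gene were not told apart.

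SF3B1 is the largest subunit of SF3b, the part of the U2 snRNP that clamps onto the branch point upstream of an acceptor. Substitutions in its HEAT repeats are recurrent in myelodysplastic syndromes, leukaemias, uveal melanoma and other tumours, and are best known for use of cryptic acceptors upstream of the usual ones. A cassette exon is skipped when the donor of the exon before it is joined directly to an acceptor after it. Skipping therefore removes reads from a pair of inclusion junctions and adds reads to 1 skip junction. If the length of the exon is not a multiple of 3, skipping shifts the reading frame, and stop codons well upstream of the last exon junction are commonly recognised by nonsense-mediated decay.

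Reads assigned to genes ranged from 82254731 in R625H to 90939945 in WT, and uniquely mapped junction reads from 66015665 in R625H to 72034388 in WT. Unmapped pairs made up 16.5, 17.3 and 15.2% in R625H, K666T and K700E and 8.84% in WT; their part in the results was not tested. Genes known in HEK293T cells (VIM, CDH2, KRT8, KRT18, NES, LIN28B, ENO2 and PAX2) were read in every library, at 1.75 CPM or more, whereas PTPRC of blood cells and CDH5 of endothelium stayed at or below 0.0926 CPM. Of markers of other cell types, ALB reached at most 0.422 CPM, CD34 1.05 and COL1A1 24.8 CPM.

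The exons of 6 genes are printed below, 5′ to 3′ on the transcript strand, because their length, frame and ends are what the skip removes; DCAF16's exon is untranslated and is given by position only. Positions are hg19 and span the exon's own bases, and the sequences come from the GENCODE release 29 transcripts (PIK3IP1-201, FNIP1-201, SETD6-202, HDAC10-214, LDHB-201 and ABCD4-201). Capitals mark the first and last 3 bases, which abut the acceptor and the donor.
PIK3IP1, chr22:31685301-31685379, minus strand: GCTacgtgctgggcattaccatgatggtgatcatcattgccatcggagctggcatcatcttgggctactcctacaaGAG
FNIP1, chr5:131046271-131046354, minus strand: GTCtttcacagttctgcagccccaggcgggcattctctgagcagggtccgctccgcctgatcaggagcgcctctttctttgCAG
SETD6, chr16:58549857-58550001, plus strand: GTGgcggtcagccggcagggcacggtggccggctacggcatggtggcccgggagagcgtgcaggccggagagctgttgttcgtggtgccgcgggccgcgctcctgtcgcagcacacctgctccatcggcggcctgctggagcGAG
HDAC10, chr22:50687260-50687288, minus strand: GATttgactcagccatcggggaccctGAG
LDHB, chr12:21799833-21799950, minus strand: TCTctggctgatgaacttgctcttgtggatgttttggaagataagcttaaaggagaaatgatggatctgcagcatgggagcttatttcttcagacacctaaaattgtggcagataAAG
ABCD4, chr14:74759857-74759951, minus strand: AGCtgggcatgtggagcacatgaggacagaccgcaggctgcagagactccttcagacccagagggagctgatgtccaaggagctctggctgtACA
Of the 7 exons, 6 end in AG, the commonest end of a human exon before its donor, and ABCD4's exon ends in ACA. Over the 30595 exons tested between K700E and WT that could be read from a transcript, 54.6% ended in AG. Among the 405 of these called lower in K700E, 59% did. GC content ran from 40.7% in LDHB to 73.8% in SETD6, with a median of 58.6% against 49.2% for those 30595 exons and 52% for the 405 called lower. Exon lengths were 79 nt in PIK3IP1, 84 in FNIP1, 119 in DCAF16, 145 in SETD6, 29 in HDAC10, 118 in LDHB and 95 in ABCD4, a median of 95 nt against 117 nt over the 42135 exons tested. Only FNIP1's length is a multiple of 3, which is 14.3% of the 7 exons, against 38.9% of all exons tested and 31.8% of the 468 exons called lower in K700E.

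Inclusion is the percent of reads that keep the exon: the mean of its 2 inclusion junctions, divided by that mean plus the skip junction. An exon was called between 2 libraries when Fisher's exact test on these reads gave a Benjamini-Hochberg adjusted p below 0.05 over all exons tested and inclusion differed by at least 10 points. Such a call compares libraries, not conditions. Inclusion of the 7 exons was lower in K700E than in WT, by differences of -44.1 to -13.1 points with a median of -29.8 points. These values chose the genes and are given as a description; without a minimum of reads per junction, PIK3IP1, HDAC10 and ABCD4 did not pass the call. Over all 42135 exons tested the median difference was -0.503 points, and 1.11% of exons were called lower in K700E. At the edge of the call, ABCD4's exon was the called member with the smallest fall (68.8% in K700E, 81.9% in WT), and a 461-nt exon of HDAC10 with 57.8% in K700E and 80.7% in WT stayed outside it.

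**Figure D1:**
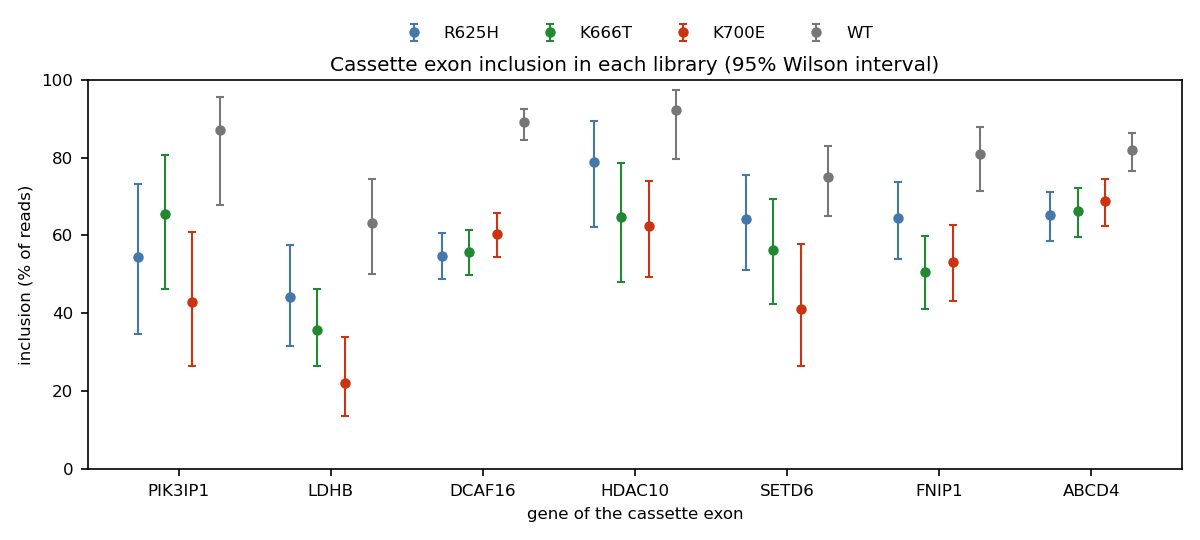
Inclusion of the cassette exon (percent of reads, vertical axis) for each gene and library; points are single libraries and bars are 95% Wilson intervals. The WT point is the highest of the 4 libraries at every gene, and K700E is the lowest at PIK3IP1, LDHB, HDAC10 and SETD6.

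The R625H and K666T libraries were also below WT at all 7 exons. K666T differed from WT by -33.4 to -15.7 points (median -27.5), and 4 exons were called (LDHB, DCAF16, FNIP1 and ABCD4), where 0.53% of all exons tested were. R625H differed from WT by -34.3 to -10.7 points (median -16.7), and 2 exons were called (DCAF16 and ABCD4), where 0.279% of all exons tested were. All 3 mutants were set against the same WT library, and that library entered the choice of genes, so these counts are not separate evidence. K700E lay below K666T at 4 of 7 exons and below R625H at 5 of 7, again as a description. At DCAF16 and ABCD4, K700E had the highest inclusion of the mutants.

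The comparison of R625H with K666T used neither library that chose the genes, and both received the same plasmid amount. None of the 7 exons was called between them by Fisher's exact test, where 0.189% of 42242 exons were called in either direction, and none had an unadjusted p below 0.05. FNIP1 had the smallest p: 64.4% in R625H against 50.5% in K666T, a difference of 13.9 points (95% interval -0.23 to 27.2, exact p = 0.0579, adjusted p = 0.642). The interval for DCAF16 ran from -9.03 to 7.33 points and that for ABCD4 from -9.87 to 7.81, whereas PIK3IP1's ran from -35.9 to 15.8 and HDAC10's from -7.46 to 33.9. The intervals left out 10 points in both directions at DCAF16 and ABCD4, held 10 points in both directions at PIK3IP1 and SETD6, and held 10 points higher in R625H, but not 10 lower, at LDHB, HDAC10 and FNIP1. The sign at SETD6 depended on the junction: R625H minus K666T was -24.1 points by the upstream inclusion junction and 15.6 by the downstream one.

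The first pair of genes acts in nutrient and growth signalling. PIK3IP1 is a transmembrane protein that restrains PI3K through its catalytic subunit, and its exon 5 of 6 was the exon the rule named, by the intron base on either side of it. Its inclusion was 54.55% in R625H (95% interval 34.7 to 73.1), 65.4% in K666T (46.2 to 80.6), 42.9% in K700E (26.5 to 60.9) and 87.0% in WT (67.9 to 95.5). These shares rest on 22, 26, 28 and 23 reads, the fewest of the 7 genes, and the intervals of R625H and K666T overlap that of WT. The interval of the difference from WT ran from -54.0 to -5.81 points in R625H and from -42.5 to 2.83 in K666T. The skip junction had 10, 9 and 16 reads in R625H, K666T and K700E and 3 reads in WT. Scaled to each library (RPM, reads per 1000000 uniquely mapped junction reads), skipping in K700E was 5.40 times WT, with an interval of 1.55 to 28.9. The inclusion junctions had 11 and 12 reads in R625H, 15 and 19 in K666T, 10 and 15 in K700E and 17 and 24 in WT, upstream junction first. Fewer inclusion reads and more skip reads thus accompanied each other in K700E.

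In PIK3IP1-201 the exon holds codons 170 to 196 of 263. Joining exon 4 to exon 6 in that transcript shifts the frame and places the first base of a stop codon after 11 nt of exon 6, for 173 codons in all. That stop lies in the last exon, so no junction follows it. An antisense gene, PIK3IP1-AS1, overlaps PIK3IP1 on the other strand, and the gene counts used were those of a stranded library.

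FNIP1 encodes folliculin-interacting protein 1, which joins folliculin in a complex tied to AMPK and lysosomal signalling. Inclusion of its exon 6 of 17 was 64.4% in R625H (53.9 to 73.6), 50.5% in K666T (41.0 to 59.95), 53.1% in K700E (43.2 to 62.6) and 81.0% in WT (71.3 to 87.9). K666T and K700E lay below WT without overlap of intervals. R625H overlapped the WT interval, while the interval of its difference from WT ran from -29.2 to -3.19 points. The skip junction had 31 reads in R625H, 51 in K666T, 46 in K700E and 16 in WT, and the ratio to WT in RPM was 2.11, 3.34 and 2.91. Inclusion junctions changed less: 42 and 71 reads in R625H, 46 and 58 in K666T, 43 and 60 in K700E and 54 and 83 in WT. The exon is the only one of the 7 with a length that is a multiple of 3. It holds codons 163 to 191 of FNIP1-201, so its loss keeps the frame and shortens it to 1093 codons, against 1121.

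DCAF16 is a substrate receptor of the CUL4-DDB1 ubiquitin ligase. Its exon lies at chr4:17806730-17806848 on the minus strand and is exon 2 of 3, in the 5′ UTR, so the skip removes no coding bases. Inclusion was 54.8% in R625H (48.9 to 60.6), 55.7% in K666T (49.9 to 61.3), 60.3% in K700E (54.6 to 65.7) and 89.1% in WT (84.5 to 92.4), from 238 to 292 reads, the most of the 7 genes. The 3 mutants overlapped one another and none overlapped WT. The skip junction had 122, 129 and 116 reads in R625H, K666T and K700E and 26 reads in WT, a ratio in RPM of 5.12, 5.20 and 4.52 (interval for K700E 2.93 to 7.21). Reads into the exon came to 144, 180 and 176 in the mutants and 286 in WT, while reads out of it to the upstream acceptor came to 152, 144 and 175 and, in WT, 139.

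Exon 3 of DCAF16 has 2 acceptors 15 nt apart, and the skip described above joins the upstream one. Of the skip reads, the upstream acceptor took 94.6% in R625H (89.2 to 97.4), 97.0% in K666T (92.5 to 98.8), 92.1% in K700E (86.0 to 95.6) and 68.4% in WT (52.5 to 80.9). Of the reads that leave exon 2, it took 83.5% in R625H (77.4 to 88.2), 79.1% in K666T (72.6 to 84.4), 78.1% in K700E (72.3 to 83.0) and 64.4% in WT (57.8 to 70.4). The share of the upstream acceptor was thus higher in every mutant than in WT, whether exon 2 was kept or not. Reads to this acceptor in K700E and WT are the reads that chose the exon, and all 3 mutants share the WT library, so these shares are a description and no separate finding. With the downstream acceptor in place of the upstream one, inclusion of exon 2 was 92.6% in R625H, 96.5% in K666T, 91.8% in K700E and 93.8% in WT, all overlapping, with 7, 4, 10 and 12 skip reads. A further acceptor inside exon 2, of the junction from 17806840 to 17812069, had 0 reads in each mutant library and 11 in WT, at least 3.36-fold lower in R625H, 3.50-fold in K666T and 3.62-fold in K700E with a floor of 3 reads per library; it was singled out after its values were seen.

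**Figure D2:**
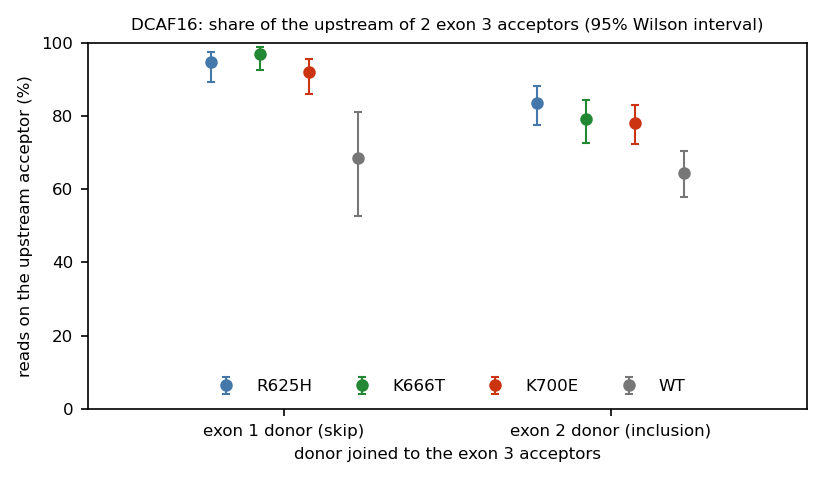
Percent of DCAF16 reads on the upstream of the 2 exon 3 acceptors (vertical axis), for reads from the exon 1 donor (exon 2 skipped) and from the exon 2 donor (exon 2 kept); points are libraries and bars are 95% Wilson intervals. The mutants lie between 92.1 and 97.0% on skip reads against 68.4% in WT, and between 78.1 and 83.5% on reads from exon 2 against 64.4% in WT.

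SETD6 and HDAC10 modify proteins. SETD6 is a lysine methyltransferase known for acting on the NF-kB subunit RelA. Inclusion of its exon 3 of 9 was 64.3% in R625H (51.2 to 75.5), 56.2% in K666T (42.3 to 69.3), 41.2% in K700E (26.4 to 57.8) and 75.0% in WT (65.0 to 82.9). Here the skip junction was level: it had 20, 21 and 20 reads in R625H, K666T and K700E and 22 in WT, and the ratio of K700E to WT in RPM was 0.921 (0.477 to 1.77). The lower share came from inclusion reads. The upstream junction had 7, 21 and 17 reads in R625H, K666T and K700E and 42 in WT, and the downstream junction had 66, 33 and 11 reads and, in WT, 89. By the upstream junction alone SETD6's exon was not called, at -19.7 points between K700E and WT. R625H was the lowest library at the acceptor and the highest mutant at the donor, where K700E was the lowest.

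The annotated junctions of SETD6 outside the skipped region, 8 in number, carried 18.04, 17.84 and 17.9 RPM in R625H, K666T and K700E and 20.14 RPM in WT. On the log2 scale that is -0.16, -0.18 and -0.17, so reads at exon 3 differed by more than the rest of the gene. The introns on either side of exon 3 are 72 and 104 nt long. Reads that remain within an intron are not counted in junction files and were not analysed here. The exon holds codons 40 to 88 of SETD6-202 (449 codons), and its loss shifts the frame to a stop after 137 codons, 485 nt before the last junction. CNOT1 overlaps SETD6 on the other strand.

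HDAC10 is a deacetylase known for acting on acetylated polyamines. The exon with the largest fall by the rule is a 29-nt form found in the non-coding transcript HDAC10-214, and it is the last 29 nt of the 60-nt exon 9 of the coding transcript HDAC10-201. Its inclusion was 78.8% in R625H (62.2 to 89.3), 64.7% in K666T (47.9 to 78.5), 62.5% in K700E (49.4 to 74.0) and 92.3% in WT (79.7 to 97.4). The skip junction had 7, 12 and 21 reads in R625H, K666T and K700E and 3 in WT, with a ratio of K700E to WT in RPM of 7.09 (2.12 to 37.1). The junctions that define the exon were unequal: the upstream one had 6, 8 and 8 reads in the mutants and 8 in WT, and the downstream one 47, 36 and 62 and, in WT, 64. Only the downstream junction is shared with the coding exon. Reads into the 29-nt exon's own acceptor came to 9, 14 and 10 in R625H, K666T and K700E and 12 in WT. Those into the acceptor of the 60-nt exon came to 17, 12 and 22 and, in WT, 21. The percentages thus rest mostly on a donor that both forms share and do not give the share of the 29-nt form. Counting every junction of the 29-nt exon, inclusion was 57.1% in R625H, 43.1% in K666T, 46.2% in K700E (35.5 to 57.1) and 64.4% in WT (51.7 to 75.4), so K700E differed from WT by -18.3 points and the intervals overlap. With multi-mapped reads added the difference was -19.1 points and the exon was not called, and by the upstream junction alone it had too few reads to test.

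The same skip junction of HDAC10 passes over exon 8 and exon 9 of HDAC10-201 together, 126 nt in all. Counted from the acceptor of exon 8 to the donor of exon 9, inclusion was 84.4% in R625H, 73.9% in K666T, 69.6% in K700E and 93.9% in WT, from 45 to 69 reads, and K700E was called lower. Loss of both exons keeps the frame and removes codons 231 to 272, leaving 627 of 669. Skipping of exon 9 alone showed no such order, with inclusion of 91.4, 77.4 and 95.2% in R625H, K666T and K700E and 87.2% in WT. Another HDAC10 exon, of 98 nt at chr22:50688492-50688589, was also called lower in K700E, at 52.4% against 80.7% in WT, with 69.4% in R625H and 76.4% in K666T.

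The last pair of genes belongs to metabolism. LDHB is lactate dehydrogenase B, which interconverts lactate and pyruvate. By the 3 junctions of the rule, inclusion of its exon 3 of 8 was 44.2% in R625H (31.6 to 57.7), 35.6% in K666T (26.4 to 46.1), 22.2% in K700E (13.7 to 33.9) and 63.2% in WT (50.2 to 74.5). These junctions are rare. The skip joins a donor other than the main one to an acceptor other than the main one, and these ends are not both annotated. This skip had 29, 56 and 49 reads in R625H, K666T and K700E and 21 in WT. Its upstream inclusion junction had 3 reads in each mutant and 4 in WT, which is 0.0171, 0.0163 and 0.0151% of all reads into the exon in R625H, K666T and K700E and 0.0207% in WT.

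The main junction into LDHB's exon 3 had 17562, 18398 and 19839 reads in R625H, K666T and K700E and 19291 in WT. Counting every junction into, out of or across the exon, inclusion was 97.1% in R625H (96.8 to 97.3), 97.0% in K666T (96.8 to 97.3), 98.8% in K700E (98.6 to 98.9) and 98.4% in WT (98.2 to 98.6). On that count K700E was 0.35 points above WT, which turns the direction of the difference round, and R625H and K666T differed from WT by -1.35 and -1.38 points. Reads of LDHB also map elsewhere: at the upstream inclusion junction 230, 255 and 250 multi-mapped reads in R625H, K666T and K700E and 286 in WT stood beside the 3 or 4 unique ones. With multi-mapped reads added, K700E differed from WT by -12.2 points, and by the upstream inclusion junction alone the exon was not called, at -10.2 points. LDHB's exon is thus one that nearly all transcripts keep in these cells, and its place among the 7 rests on fewer than 100 reads per library.

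A junction from 21796998 to 21799832 within LDHB, from the donor of exon 3 to an acceptor inside exon 4, had 222, 216 and 170 unique reads in R625H, K666T and K700E and 0 in WT. With a floor of 3 reads per library that is at least 80.8-fold higher in R625H, 75.5-fold in K666T and 57.4-fold in K700E; the junction was singled out after its values were seen. The main junction of the same donor had 14562, 15413 and 16694 reads in R625H, K666T and K700E and 16316 in WT.

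ABCD4 is an ABC transporter of the lysosome that takes part in the release of cobalamin (vitamin B12) to the cytosol. Inclusion of its exon 8 of 19 was 65.2% in R625H (58.7 to 71.1), 66.2% in K666T (59.7 to 72.2), 68.8% in K700E (62.4 to 74.5) and 81.9% in WT (76.4 to 86.3). The mutants overlapped one another and lay below the WT interval. The skip junction had 77, 73 and 69 reads in R625H, K666T and K700E and 42 in WT, and in RPM K700E was 1.66 times WT (1.12 to 2.5). Inclusion junctions were even at both ends, with 139 and 166 reads in K700E and 190 and 191 in WT.

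Longer skips of ABCD4 passed over this exon as well. The junction from 74759573 to 74769577, which omits at least exon 7 as well, had 17, 13 and 40 reads in R625H, K666T and K700E and 10 in WT, and the junction from 74753520 to 74769577 had 17, 22 and 48 and, in WT, 10. K700E had the most reads on both, although on the single-exon skip it had the fewest of the mutants. Counting every junction across the exon, inclusion was 53.2% in R625H (47.4 to 58.9), 53.7% in K666T (47.8 to 59.6), 46.3% in K700E (41.0 to 51.6) and 74.3% in WT (68.7 to 79.2). The difference between K700E and WT was then -28.0 points, against -13.1 points by 3 junctions. By the downstream inclusion junction alone the exon was not called. The exon holds codons 240 to 272 of ABCD4-201 (606 codons), and its loss gives a stop 16 nt after the new junction, 919 nt before the last one.

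**Figure D3:**
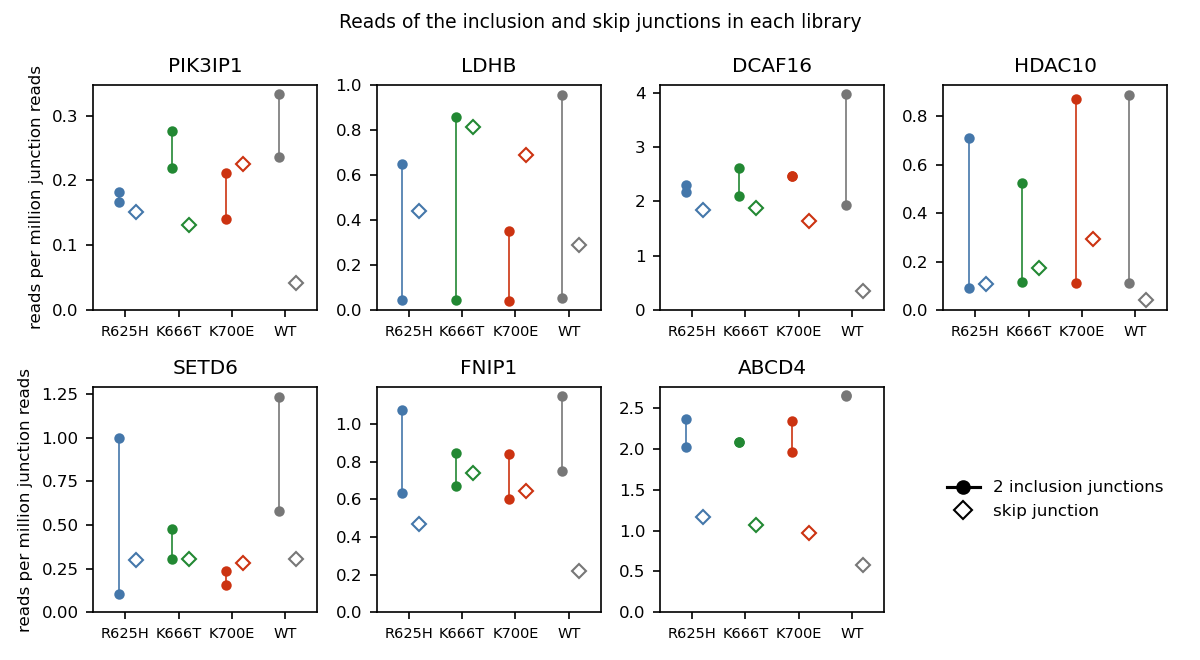
RPM (vertical axis, scaled per gene) at the 2 inclusion junctions (filled points joined by a line) and the skip junction (open diamonds) in each library. Skip reads are above WT in the mutants at every gene but SETD6, where they are level; there R625H is the lowest library at one inclusion junction and K700E at the other.

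Across the 7 exons by their 3 junctions, LDHB's rare ones included, skip reads in RPM in K700E were 0.921 to 7.09 times those in WT, with a median of 2.91. Inclusion reads were 0.215 to 0.985 times WT, with a median of 0.775. SETD6 had the lowest value of both, and HDAC10 had the highest of both. The upstream and downstream inclusion junctions differed by more than 3-fold in LDHB and HDAC10, which is 2 of 7 exons. Of all exons tested 36.4% did, and of the 468 exons called lower in K700E 57.05% did. WT inclusion of the 7 had a median of 81.9%, against 89.3% over the 468 called lower and 96.8% over all exons tested.

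**Figure D4:**
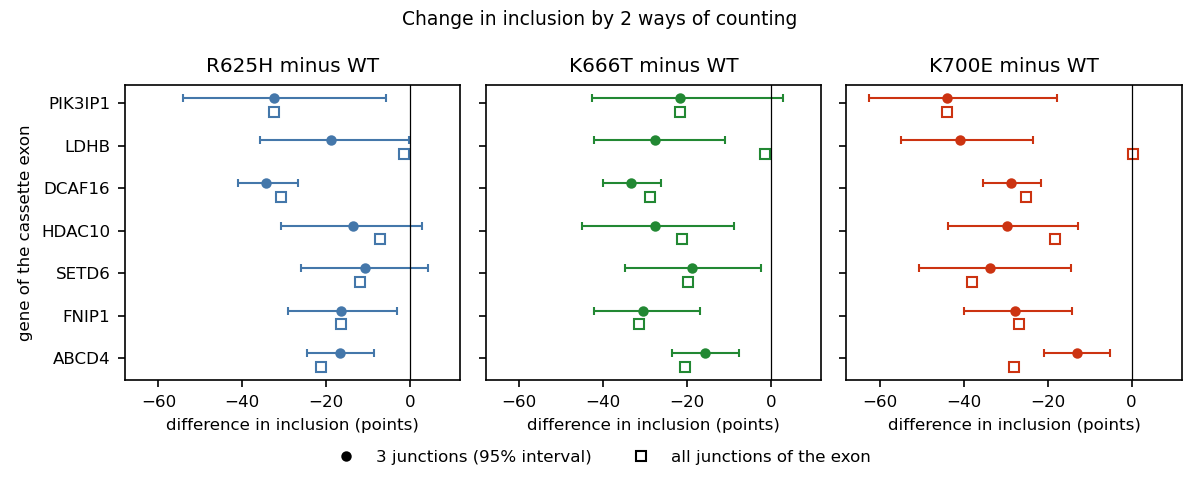
Difference in inclusion from WT in percentage points (horizontal axis) for R625H, K666T and K700E at each gene; filled points use 3 junctions with 95% intervals of the difference, and open squares use every junction of the exon. LDHB's squares lie at -1.35, -1.38 and 0.35 points, and ABCD4's K700E square lies at -28.0 points beside a filled point at -13.1.

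In the 7 genes, 49 cassette exons with annotated ends were tested between K700E and WT, counting an exon once for each pair of outer splice sites. Of these 9 were called lower and 0 higher by Fisher's exact test, where 1.11% of all exons tested were called lower, but 7 of the 9 are the members that chose the genes. Among the 35 exons that share no junction with a member, 1 was called lower, the 98-nt exon of HDAC10. In ABCD4, 19 such exons had a median difference of -3.04 points and none was called.

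Levels of the 7 genes differed little by count. CPM values are on a linear scale, and log2 ratios use a prior count of 10. Parts of LDHB, FNIP1 and ABCD4 are overlapped on the same strand by AC010197.2, AC008695.1 and AC005519.1 in the annotation. LDHB, the most abundant, had 1318, 1321 and 1251 CPM in R625H, K666T and K700E and 1343 CPM in WT, which on the log2 scale is -0.03, -0.02 and -0.10 relative to WT. DCAF16 had 92.8, 91.4 and 89.0 CPM in the mutants and 83.2 in WT (log2 ratios 0.16, 0.13 and 0.10). SETD6 had 38.8, 38.5 and 37.1 CPM and, in WT, 43.3 (-0.16, -0.17 and -0.22). FNIP1 had 50.6, 52.2 and 46.8 CPM and, in WT, 45.9 (0.14, 0.18 and 0.03), and ABCD4 had 51.1, 51.8 and 56.0 CPM and, in WT, 53.5 (-0.07, -0.05 and 0.07). PIK3IP1 was low, with 3.51, 3.28 and 3.40 CPM in the mutants and 3.98 in WT (-0.17, -0.27 and -0.22).

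HDAC10 had 59, 73 and 49 reads in R625H, K666T and K700E and 75 in WT, below 1 CPM in every library, so 6 of the 7 genes passed the minimum of 1 CPM. MAPK12 overlaps HDAC10 on the same strand in the annotation. The 20 annotated junctions of HDAC10 outside the skipped region held 846, 974 and 867 reads in R625H, K666T and K700E and 1045 in WT. That is more than HDAC10's gene counts, and the log2 ratios were -0.18, -0.03 and -0.25. No member was 2-fold apart from WT in any mutant. At least 2-fold differences from WT were seen for 0.68% of 14847 genes in R625H, for 0.7% in K666T and for 1.74% in K700E, the background for that statement.

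**Figure D5:**
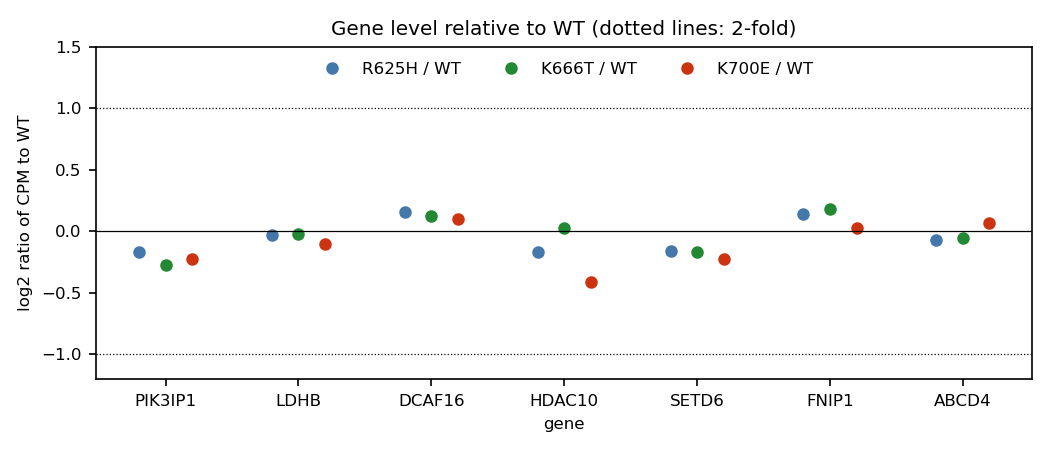
Log2 ratio of CPM to WT (vertical axis, prior count of 10) for the 7 genes in R625H, K666T and K700E; each point is 1 library over WT and dotted lines mark 2-fold. All points lie between -0.41 (HDAC10 in K700E) and 0.18 (FNIP1 in K666T).

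Genes that work with the 7 were listed by role: PI3K signalling, lactate and pyruvate metabolism, CUL4 ligases, histone deacetylases, lysine methyltransferases, folliculin and AMPK, and peroxisomal or cobalamin transport. Of 84 listed genes, 82 passed the CPM minimum and 71 had a tested exon. Between K700E and WT, 4 of their 344 exons were called lower and 0 higher, 1.16% against the 1.11% of all exons. AKT2, a kinase downstream of PI3K, had inclusion of 71.4% in K700E and 100% in WT for a 93-nt exon, from 21 and 34 reads. LDHC, the testis form of lactate dehydrogenase, had 74.0% in K700E and 86.4% in WT for a 118-nt exon. HDAC5, a class IIa deacetylase, had 78.2% in K700E and 93.0% in WT, and EHMT1, a histone H3 lysine 9 methyltransferase, 75.2% in K700E and 85.9% in WT. In R625H and K666T inclusion was 68% and 74.1% for AKT2 and 87.8% and 83.6% for LDHC. For HDAC5 it was 80.3% and 82.7%, and for EHMT1 82.7% and 78.6%. These values also lay below WT, except LDHC in R625H, and AKT2 was lower in R625H than in K700E. The folliculin, CUL4 and transport lists held no called exon, and no listed gene was 2-fold apart from WT.

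The exons most like the 7 were sought by the distance of their 3 differences from WT to the members' mean differences of -20.45 points in R625H, -25.00 in K666T and -31.21 in K700E, over 41648 exons with enough reads in all 4 libraries. The nearest belonged to IQCK, a protein with an IQ motif, at a distance of 5.37 points, with inclusion of 60.7, 56.5 and 52.6% in R625H, K666T and K700E and 79.3% in WT. SMC4, a condensin subunit, followed at 6.96 points, with 62.1, 53.6 and 43.3% in the mutants and 76.2% in WT. INO80E, a subunit of the INO80 chromatin remodeller, lay at 7.05 points, with 76.2, 80.9 and 70.8% and, in WT, 100%. An exon of ALDOA, an enzyme of glycolysis, which the annotation shares with AC093512.2, lay at 7.18 points, and one of HOXA3, a homeobox factor, at 7.79 points. These exons rest on 21 to 72 reads per library, and such likeness is a description of these 4 libraries. The members' mean includes LDHB by its rare junctions, at -40.9 points in K700E, where all junctions of its exon gave 0.35 points.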

How the data were processed

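Poly(A) RNA-seq of 4 HEK293T libraries was used. The authors deposited raw counts of reads per gene and raw counts of reads per splice junction, and, per the files' layout, the longest overhang of each junction as another deposited value, which was not used. The submitters' processing notes name STAR 2.5.3a, HTSeq and the builds hg19 and GRCh37, and no annotation release. Per the labels, libraries were stranded, so column 4 of the gene counts was used. Rows naming no gene (unmapped, multimapping, in no feature, ambiguous) were left out; ambiguous pairs were 3.04 to 3.43% of pairs.

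Junctions were assigned to GENCODE release 29 genes by matching at least 2 introns by length and order (16145 of 18243 protein-coding genes), since no hg19 annotation was used here; exon sequences were read by exon number. Cassette exons were 10 to 500 nt with annotated ends and at least 10 unique reads at each of the 3 junctions over the 4 libraries, a minimum set after values were seen; tests needed 20 reads in both libraries. Wilson 95% intervals were used for shares, exact conditional ones for read ratios and Newcombe's for differences. The exact test was checked on simulated counts. Named genes were all members, listed genes with a call and the 5 nearest exons. Members and lists were chosen with earlier results of these data known. Tools were Python 3.11.15, numpy 2.4.6, pandas 2.3.3 and, for scaling factors as an alternative, edgeR 4.0.16 and DESeq2 1.42.0 in R 4.3.3.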

Additional observations from a re-analysis of the deposited data

How the results depend on the processing

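Values were recomputed under other settings, 207 times in all: 170 stayed within counting error or kept their call, 32 moved further and 5 reversed. None of the 7 exons was called between R625H and K666T under other junction counts, but signs turned round at SETD6 (-24.07 points) and ABCD4 (0.75) by the upstream inclusion junction only, and at DCAF16 by the downstream one only (2.73) and with multi-mapped reads (0.53). For the 7 exons, 34 of 35 differences between K700E and WT under other junction counts stayed below 0, and LDHB with every junction of the exon gave 0.35 points. The 7 exons were chosen on reads that these counts reuse, so their signs and the calls that follow are a description and no separate support. All 7 exons stayed called lower in K700E at minimums of 10 reads and at 5 points; 6 were called at 20 points and with the downstream inclusion junction only (ABCD4 lost), 6 with multi-mapped reads (HDAC10 lost), 4 with the upstream inclusion junction only (LDHB and SETD6 lost, HDAC10 not tested), 5 with 1 exon per group sharing a junction (HDAC10 and ABCD4 not tested), 4 with 50 reads (PIK3IP1, HDAC10 and SETD6 were not tested) and 4 with no minimum of reads per junction, a setting added, like the count of every junction, after seeing the data.

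Counts of exons called lower in K700E, K666T and R625H against WT, and called between R625H and K666T, were 991, 502, 240 and 152 at 5 points, where the main counts are 468, 223, 117 and 80. At 20 points the first 3 were 140, 79 and 48. They were 873, 503, 460 and 370 with multi-mapped reads, 152, 74, 32 and 7 with 1 exon per group sharing a junction (fewer exons tested), and 1062, 623, 448 and 523 with unannotated exons. Between R625H and K666T the count was 47 with 50 reads and 121 with the downstream inclusion junction only. Without a CPM minimum, genes at least 2-fold apart from WT numbered 213 in R625H, 226 in K666T and 527 in K700E, where the main counts are 101, 104 and 259. No library could be left out, since each group has 1. No paired analysis was possible because the groups share no replicate numbers beyond a single library each. Depth limits PIK3IP1 most, with 22 to 28 reads per library.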
